A study of Mus musculus with 32 samples.

Results

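Matrix metalloproteinases (MMPs) and their tissue inhibitors (TIMPs) were followed in the mouse distal colon through 10 genes, Mmp2, Mmp3, Mmp7, Mmp9, Mmp10, Mmp12, Mmp13, Mmp14, Timp1 and Timp3. They were 10 of the 18193 genes measured. Each gene was read from the probe set that carried its symbol in the platform annotation and had the highest mean signal over all 32 arrays, and all 10 members had one. The groups were Myd88 knockout (KO) mice treated with azoxymethane (AOM, a carcinogen) and dextran sodium sulfate (DSS, a polymer that damages the gut lining), wild type (WT) mice given the same treatment, untreated KO mice and untreated WT mice. Myd88 is the adaptor protein of IL-1 family and most Toll-like receptors. There were 10, 10, 6 and 6 mice in these groups, with 1 array per mouse, described by the submitters as biological repeats. Treated mice were 6 to 8 weeks old when they received AOM at 10 mg/kg into the peritoneum, and 1 week later they drank 2% DSS for 3 days and were killed, so the treated groups show an early, injured colon labelled as colitis. No age was given for untreated mice. The strain was C57 BL6NCr, onto which the KO mice had been backcrossed, and the Myd88 deletion was not described as limited to a cell type.

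MMPs are zinc proteases that are secreted or held at the cell surface as inactive precursors and, once cut into their active form, digest collagens, laminin, elastin and other matrix proteins as well as cytokines and growth factors. TIMPs bind active MMPs and block them. In the gut, stromal cells, macrophages and neutrophils are known sources of most of these proteases during inflammation and wound repair, while Mmp7 is made by epithelial cells, including Paneth cells of the mouse small intestine.

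Of the 10 members, Mmp3, Mmp7, Mmp10, Mmp12 and Mmp13 lie side by side on mouse chromosome 9. In the RefSeq annotation of GRCm38.p6 the 10 protein-coding genes from Mmp13 to Mmp7 were all Mmp genes, in the order Mmp13, Mmp12, Mmp1b, Mmp3, Mmp1a, Mmp10, Mmp8, Mmp27, Mmp20 and Mmp7. Myd88 lies on the same chromosome, with 1096 protein-coding genes between Mmp7 and it. Mmp2 lies on chromosome 8, Mmp9 on chromosome 2, Mmp14 on chromosome 14, Timp1 on chromosome X and Timp3 on chromosome 10.

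Promoters of 4 cluster genes are shown because Mmp3, Mmp13 and Mmp10 had the largest differences among the members, whereas Mmp7, whose window also matched the motif, did not move with them. Each is the 130 bases before the RefSeq start on the plus strand of GRCm38.p6, at chr9:7445692-7445821 for Mmp3, chr9:7272384-7272513 for Mmp13, chr9:7502212-7502341 for Mmp10 and chr9:7691960-7692089 for Mmp7. Capitals mark matches to TGANTCA, the letters of the AP-1 motif (bound by Fos and Jun proteins), and to the TATA box letters TATAAA.
Mmp3: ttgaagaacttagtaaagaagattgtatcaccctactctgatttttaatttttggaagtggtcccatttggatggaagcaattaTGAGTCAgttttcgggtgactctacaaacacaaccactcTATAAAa
Mmp13: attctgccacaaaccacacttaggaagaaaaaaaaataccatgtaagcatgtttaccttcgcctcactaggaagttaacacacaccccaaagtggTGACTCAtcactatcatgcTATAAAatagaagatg
Mmp10: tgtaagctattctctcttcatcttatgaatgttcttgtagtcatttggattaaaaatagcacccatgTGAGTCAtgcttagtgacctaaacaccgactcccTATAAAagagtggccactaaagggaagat
Mmp7: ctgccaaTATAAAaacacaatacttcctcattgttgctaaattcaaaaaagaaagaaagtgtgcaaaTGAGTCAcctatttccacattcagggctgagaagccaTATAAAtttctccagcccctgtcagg
Counted back from the start, with -1 for the last base before it, the first base of the AP-1 match stood at -46 in Mmp3, -35 in Mmp13, -63 in Mmp10 and -63 in Mmp7. The search covered both strands of the 250 bases before each start, and the 2 motifs did not overlap in the promoters shown. TGANTCA occurred in 6.75% of the 32851 promoter windows of the mouse table, TATAAA in 12.4% and both in 1.21%. Among the members, 8 had 10 windows in the table, and 5 of these windows held TGANTCA, the other one being the second start of Mmp12 at -44. The letters TGANTCA were not in the windows of Timp1, Timp3 and Mmp14, of the other Mmp12 start or of the other Mmp7 start. A match is a description of the letters only.

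The values below are log2 signals after quantile normalization. Differences are log2 differences ± standard error from limma, and a gene was called where its p, adjusted by Benjamini-Hochberg over the 18193 genes, was under 0.05. Signals had a floor at 3.322. A probe set's level cannot be set against another gene's, so levels are compared between groups and not between genes. The Myd88 probe set averaged 8.00 ± 0.31 in treated KO and 8.46 ± 0.12 in treated WT mice (SD, n = 10 each), and 7.67 ± 0.11 in untreated KO and 8.40 ± 0.11 in untreated WT mice (SD, n = 6 each). It was lower in KO mice in both pairs (adjusted p = 0.00104 and 0.000925, limma), but the highest treated KO value, 8.31, lay above the lowest treated WT value, 8.26, and the deleted exons are not given in the labels.

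In treated mice, Mmp3, Mmp13, Mmp12 and Timp1 were higher in KO than in WT colons, and no member was lower. Mmp3 was 3.52-fold higher, Mmp13 2.82-fold, Timp1 2.03-fold and Mmp12 1.91-fold. These 4 of 10 members stand beside 12.8% of all genes called in this comparison in either direction and 6.24% of all genes called higher in KO. All 10 members had a positive difference, with a median of 0.66, against a median of 0 over all genes. At an unadjusted p under 0.05 there were 7 of 10 members, beside 26% of all genes. No member separated the groups completely: for all 10, the treated KO and treated WT values overlapped, as they did for all but 0.231% of genes. The same held for all 10 members in the other 3 pairs of groups, where 2.04% of genes separated treated from untreated KO mice, 1.42% treated from untreated WT mice and 0.951% untreated KO from untreated WT mice.

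**Figure D1:**
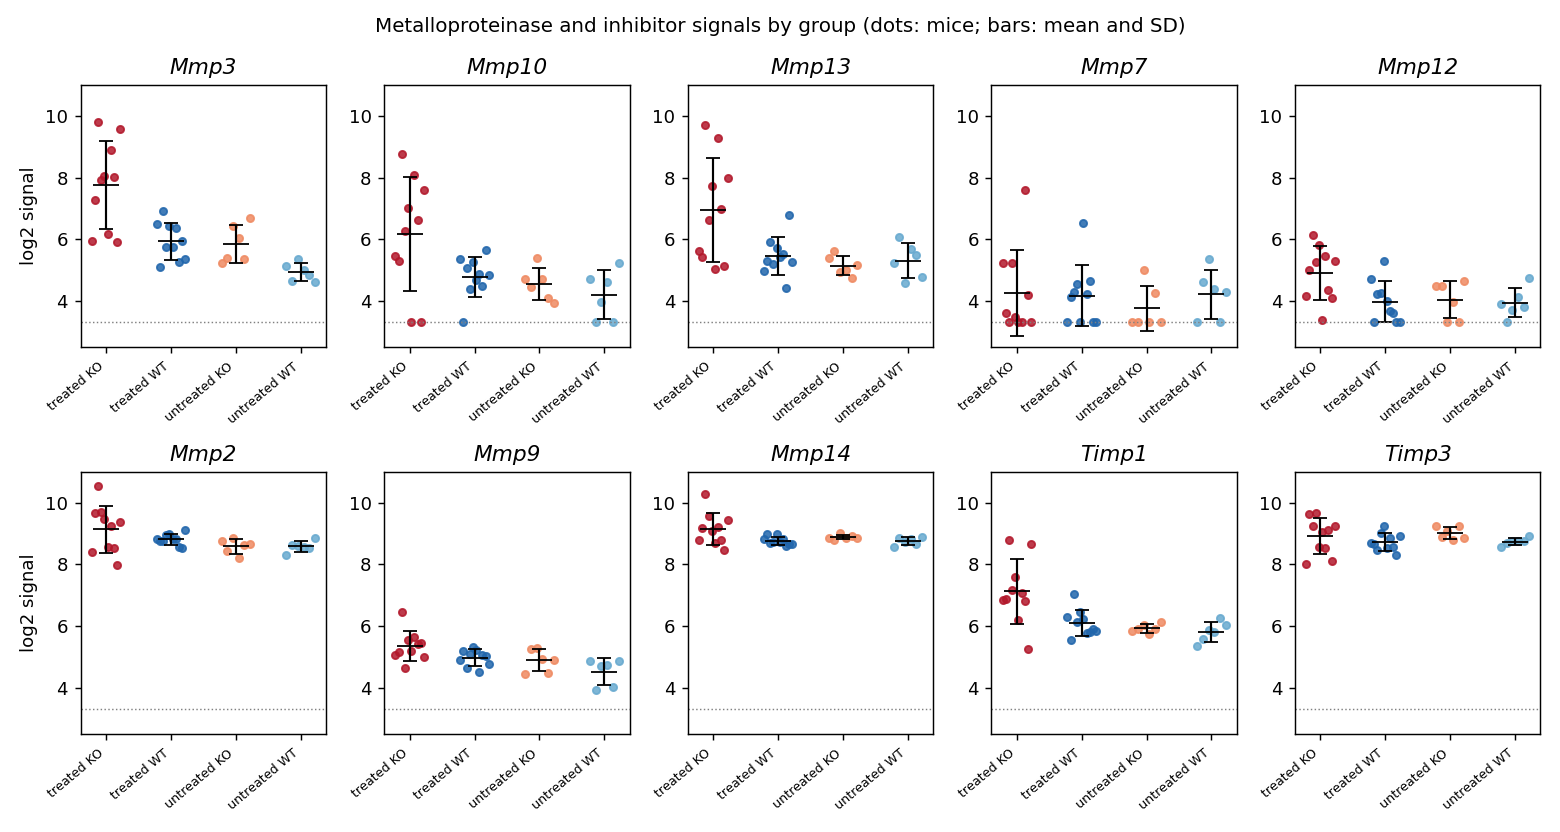
Log2 signal (vertical axis) of the 10 members in each mouse (points), by group, with black bars for mean ± SD and a dotted line at the floor of 3.322. Treated KO mice spread widely for Mmp3, Mmp10, Mmp13 and Timp1, with repeat 3 at the top, while the other 3 groups stay closer together.

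The stromelysins Mmp3 and Mmp10 digest a broad range of matrix proteins and activate other MMP precursors. Mmp3 had a lowest, median and highest value of 5.92, 7.96 and 9.80 in treated KO mice, against 5.09, 5.84 and 6.91 in treated WT mice. Of the 10 treated KO mice, 7 lay above the highest treated WT mouse. The difference of 1.82 ± 0.41 had an adjusted p of 0.00371 in limma and a 95% interval of 0.99 to 2.65. In untreated mice Mmp3 ran 5.22, 5.72 and 6.69 in KO and 4.62, 4.94 and 5.37 in WT. Here 4 of 6 untreated KO mice lay above every untreated WT mouse, but the difference, 0.91 ± 0.52, was not called (adjusted p = 0.775, limma). Mmp3 had the highest mean in treated KO mice (7.75 ± 1.42, SD, n = 10) and the lowest in untreated WT mice (4.94 ± 0.29, SD, n = 6), and treated WT (5.94 ± 0.60) and untreated KO mice (5.85 ± 0.62) lay together between them.

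Mmp10 ran 3.32, 6.44 and 8.77 in treated KO mice, against 3.32, 4.85 and 5.65 in treated WT mice. The floor held 2 treated KO mice and 1 treated WT mouse, while 6 treated KO mice lay above every treated WT mouse. Its difference of 1.39 ± 0.52, with an SD of 1.85 among treated KO mice, was not called (adjusted p = 0.0767, limma). Without treated KO repeat 6 or repeat 9, the mice at the floor, the difference was 1.70 and was called (adjusted p = 0.0161 and 0.0129, limma). Leaving out the lowest mice of a group raises its mean in any case. With any single mouse left out, the difference went down to 1.10 and the adjusted p up to 0.144 (limma). Mmp10 was past the threshold in 3 of 44 settings tried.

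Mmp13, the main interstitial collagenase of mice, ran 5.04, 6.80 and 9.71 in treated KO mice, against 4.41, 5.37 and 6.78 in treated WT mice. Of the treated KO mice, 5 lay above every treated WT mouse and the other 5 within the treated WT range. The difference was 1.49 ± 0.47 (adjusted p = 0.0318, limma), with a 95% interval of 0.54 to 2.45. In untreated mice it ran 4.76, 5.09 and 5.61 in KO and 4.57, 5.36 and 6.08 in WT, a difference of -0.16 ± 0.60 that was not called. Its call in treated mice was lost without any one of treated KO repeats 3, 5, 7 and 10 or treated WT repeats 4 and 8, with differences of 1.19 to 1.46 and adjusted p of 0.0511 to 0.0641 (limma).

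Mmp12, the macrophage metalloelastase, was dim. It ran 3.39, 5.14 and 6.15 in treated KO mice, against 3.32, 3.84 and 5.30 in treated WT mice, of which 3 were at the floor. The difference of 0.93 ± 0.31 had an adjusted p of 0.0428 in limma, close to the threshold. It was past the threshold in 22 of 44 settings tried.

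Mmp7, or matrilysin, which in mice activates Paneth cell defensins, was at the floor in 4 of 10 treated KO, 4 of 10 treated WT, 4 of 6 untreated KO and 2 of 6 untreated WT mice. Its difference in treated mice was 0.10 ± 0.47 (adjusted p = 0.958, limma), with an interval of -0.86 to 1.06. The 2 highest values of Mmp7, 7.61 in treated KO repeat 8 and 6.52 in treated WT repeat 6, came from mice in which no other member was highest.

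The gelatinases Mmp2 and Mmp9 cut denatured collagen and basement membrane collagen. Mmp2 ran 7.98, 9.30 and 10.52 in treated KO mice, against 8.52, 8.81 and 9.12 in treated WT mice. Treated KO mice lay on both sides of the narrow treated WT range, 6 above and 2 below it, and the difference of 0.33 ± 0.20 was not called (adjusted p = 0.32, limma). Mmp9 ran 4.63, 5.30 and 6.47 in treated KO mice, against 4.52, 5.06 and 5.32 in treated WT mice. Its difference of 0.38 ± 0.17 was not called (adjusted p = 0.166, limma), and its other probe set was at the floor on 27 of 32 arrays.

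Mmp14, a membrane-bound MMP that activates the Mmp2 precursor, ran 8.45, 9.12 and 10.27 in treated KO mice, against 8.58, 8.72 and 8.97 in treated WT mice. Of the treated KO mice, 6 lay above and 1 below the treated WT range. The difference of 0.39 ± 0.14 missed the threshold (adjusted p = 0.0638, limma). Of its 3 probe sets, the dimmest rose by 0.63 ± 0.19 (adjusted p = 0.0336 over all probe sets, limma), and the remaining one had a difference of 0.42 ± 0.17 (adjusted p = 0.123).

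Timp1, the inducible inhibitor of most secreted MMPs, ran 5.25, 6.97 and 8.80 in treated KO mice, against 5.55, 6.01 and 7.03 in treated WT mice. Of the treated KO mice, 5 lay above every treated WT mouse and 1, repeat 9, below all of them. The difference was 1.02 ± 0.29 (adjusted p = 0.0184, limma), with an interval of 0.43 to 1.61. When the fit held only treated mice, Timp1, Mmp13 and Mmp12 were not called (adjusted p = 0.081, 0.109 and 0.099, limma). Timp3, an inhibitor bound to the matrix that also blocks ADAM proteases, ran 8.00, 9.08 and 9.66 in treated KO mice, against 8.29, 8.67 and 9.24 in treated WT mice. Its difference of 0.19 ± 0.17 was not called (adjusted p = 0.519, limma), nor was that of any of its 4 probe sets.

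**Figure D2:**
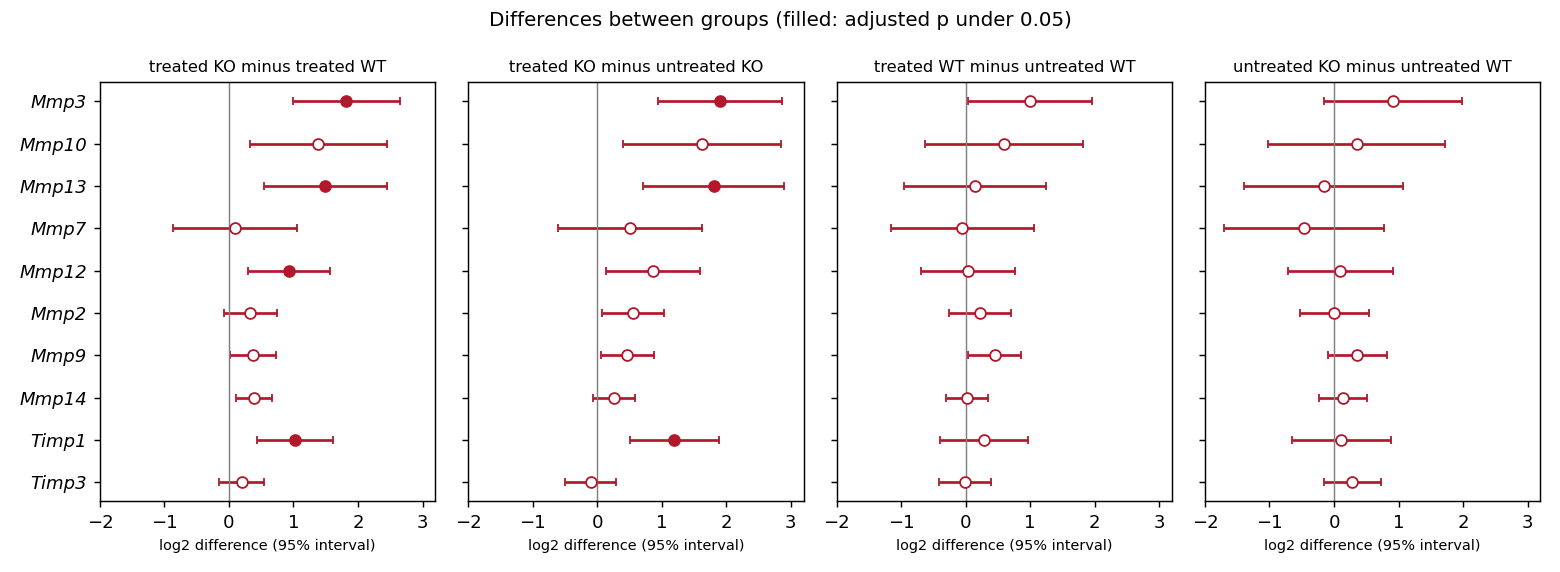
Log2 difference of each member (points) with its 95% interval (bars) in the comparisons of the study, with filled points for an adjusted p under 0.05. Filled points appear for Mmp3, Mmp12, Mmp13 and Timp1 in treated KO minus treated WT and for Mmp3, Mmp13 and Timp1 in treated KO minus untreated KO.

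Within KO mice, treatment raised Mmp3, Mmp13 and Timp1. Mmp3 was 3.73-fold higher in treated than in untreated KO mice, Mmp13 3.48-fold and Timp1 2.29-fold. These 3 of 10 members stand beside 18.7% of all genes called in either direction and 8.7% of all genes called higher after treatment. The differences were 1.90 ± 0.47 for Mmp3 (adjusted p = 0.00462), 1.80 ± 0.54 for Mmp13 (adjusted p = 0.0179) and 1.19 ± 0.33 for Timp1 (adjusted p = 0.0117, all limma). Timp1 showed the shift in the most mice: 9 of 10 treated KO mice lay above the highest of the 6 untreated KO mice, whose values ran only 5.74, 5.92 and 6.13, and the other treated mouse, repeat 9, lay below the lowest. For Mmp3 7 of 10 and for Mmp13 6 of 10 treated KO mice lay above every untreated KO mouse. Mmp10 had a difference of 1.62 ± 0.60 (adjusted p = 0.0568), Mmp12 of 0.87 ± 0.35 (0.0876), Mmp2 of 0.56 ± 0.23 (0.0989) and Mmp9 of 0.47 ± 0.20 (0.107), none of them called. Mmp7, Mmp14 and Timp3 had adjusted p of 0.582, 0.272 and 0.802 in limma. The median member difference was 0.71 with 9 of 10 positive, against 0 over all genes. When the fit held only KO mice, no member was called, with adjusted p of 0.0562 for Mmp3, 0.109 for Mmp13 and 0.0858 for Timp1 (limma).

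Within WT mice no member was called, beside 1.84% of all genes. At an unadjusted p under 0.05 there were 2 members, beside 14.9% of all genes, Mmp3 with a difference of 1.00 ± 0.47 (adjusted p = 0.31) and Mmp9 with 0.45 ± 0.20 (adjusted p = 0.279, limma). For Mmp3, 8 of 10 treated WT mice lay above the highest untreated WT mouse, and in a fit of WT mice alone it was called (adjusted p = 0.0394, limma). Mmp13 differed by 0.15 ± 0.54 and Timp1 by 0.29 ± 0.33. The median member difference was 0.19. In untreated mice the KO minus WT comparison also called no member and 0.115% of genes, with no member at an unadjusted p under 0.05, beside 7.17% of all genes, and a median of 0.13. The fit took a single spread per gene for all groups, which includes the wide spread of treated KO mice. A baseline difference could therefore be missed. With only untreated mice in the fit no member was called either.

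Whether the response differed between genotypes was tested directly by the interaction. No member was called, beside 0.055% of all genes, and 1 member, Mmp13, had an unadjusted p under 0.05, beside 11.7% of all genes, with a difference of responses of 1.66 ± 0.76 (adjusted p = 0.389, limma). The difference for Mmp3 was 0.90 ± 0.66 (adjusted p = 0.638), with an interval of -0.45 to 2.26, and for Timp1 0.91 ± 0.47 (adjusted p = 0.458, limma). The treated KO comparisons share the treated KO mice, so their calls are not independent of each other.

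The treated KO mice differed strongly among themselves. Repeat 3 was the highest treated KO mouse for 8 of the 10 members, the exceptions being Timp3 and Mmp7. Repeat 9 was among the lowest 2 for 8 members, the exceptions being Mmp7 and Mmp9, and repeat 6 was for 5 members. The SD in treated KO mice was 4.22 times that in treated WT mice for Mmp2, 4.02 times for Mmp14, 2.84 for Mmp10, 2.71 for Mmp13, 2.48 for Timp1 and 2.36 for Mmp3, whereas the median ratio over all genes was 1.30. Mmp12, at 1.32, and Mmp7, at 1.42, lay near that median. The limma fit assumed the same spread in all groups for each gene. For members with a wide treated KO spread, standard errors, intervals and p of the treated KO comparisons can therefore be too small. Without treated KO repeat 3, Mmp3 still differed between treated KO and treated WT mice by 1.59 (the lowest value with any single mouse left out), and Mmp3 was past the threshold in all 45 settings tried.

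**Figure D3:**
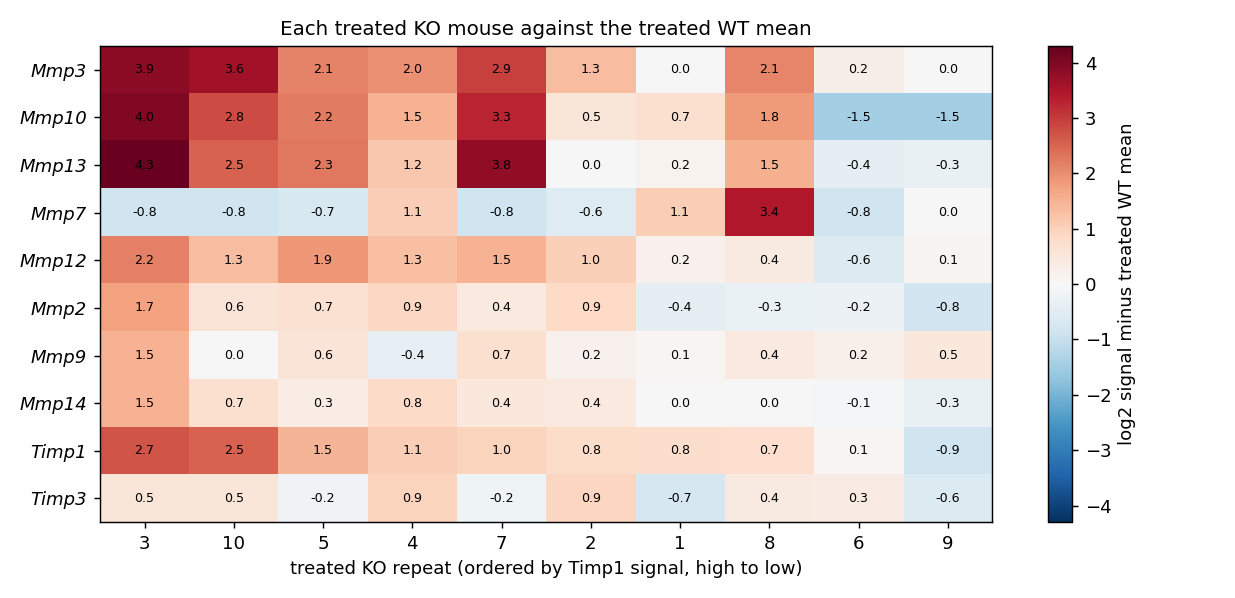
Log2 signal of each member in each treated KO mouse minus the mean of the 10 treated WT mice (colour and printed value), with mice ordered by Timp1. Repeat 3 stands above the WT mean for 9 members and repeat 9 below it for 7, while Mmp7 follows no such order.

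Across the 10 treated KO mice, Timp1 went with most of the proteases. Its correlation with Mmp3 was r = 0.867 (Spearman rho 0.855, permutation p = 0.001, adjusted p = 0.00654 over 48 relations tested), and r was 0.775 without the 2 mice farthest from the Timp1 median. It was 0.861 with Mmp10, 0.85 with Mmp14, 0.802 with Mmp2, 0.773 with Mmp12 and 0.767 with Mmp13, with permutation adjusted p of 0.00811, 0.00811, 0.0138, 0.0182 and 0.0187. Spearman's rho for these pairs was 0.827, 0.903, 0.806, 0.915 and 0.818. Without the 2 farthest mice r was 0.708, 0.656, 0.492, 0.683 and 0.586, lowest for Mmp2. Leaving out those mice also narrows the range of Timp1, which by itself can lower r. Timp1 had r = 0.312 with Mmp9, 0.411 with Timp3 and -0.256 with Mmp7 (permutation adjusted p = 0.497, 0.342 and 0.547). Across the 10 treated WT mice, Timp1 and Mmp3 had r = 0.788 (rho 0.758, permutation adjusted p = 0.0138), which was 0.525 without the 2 farthest mice. In these mice r was 0.671 with Mmp12, 0.483 with Mmp10, 0.237 with Mmp13, 0.134 with Mmp2 and -0.0609 with Mmp14 (permutation adjusted p = 0.0656, 0.238, 0.574, 0.799 and 0.895). Their rho ran 0.755, 0.527, 0.285, 0.224 and 0.0667, and r without the 2 farthest mice 0.911, 0.242, 0.0321, 0.33 and 0.701. Whether the relations differed between genotypes was not tested.

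**Figure D4:**
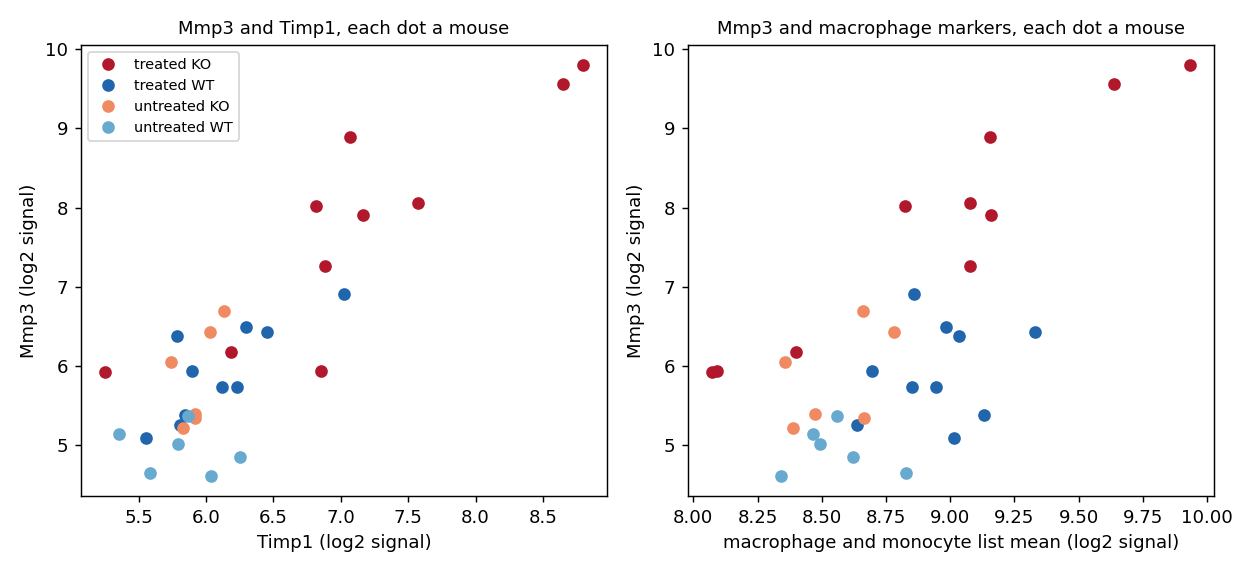
Log2 signal of Timp1 against that of Mmp3 in each mouse, coloured by group. Treated KO mice run along a rising line up to repeat 3 at 9.80 for Mmp3 and 8.80 for Timp1, while the other groups stay at or below 6.91 and 7.03.

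The distal colon was measured whole, so more cells of a type and more RNA per cell cannot be told apart. The mean of 12 macrophage and monocyte markers was 8.94 ± 0.61 in treated KO and 8.95 ± 0.20 in treated WT mice (SD, n = 10 each), ranging over 8.07 to 9.93 and 8.64 to 9.33, and none of the 12 was called. The mean of 10 fibroblast markers was 10.10 ± 0.61 and 10.09 ± 0.25, ranging over 9.10 to 11.07 and 9.63 to 10.55, again with none called. The mean of 9 neutrophil markers was 4.55 ± 0.48 in treated KO and 4.82 ± 0.56 in treated WT mice, with none called. The mean of 7 endothelial markers was 6.84 ± 0.39 in treated KO and 6.61 ± 0.17 in treated WT mice, ranging over 6.16 to 7.39 and 6.28 to 6.86. All 7 were higher in treated KO mice, 1 of them called (Emcn, 0.39 ± 0.12, adjusted p = 0.0237, limma), beside 6.24% of all genes called higher. For the list mean, repeat 3 was the highest treated KO mouse and repeats 1 and 9 were the lowest. In treated against untreated KO mice, 10 of 12 macrophage markers were higher (median 0.47), and Cd68 and Ms4a7 were called (1.18 ± 0.30 and 0.67 ± 0.22, adjusted p = 0.0058 and 0.0357, limma). There all 7 endothelial markers were higher, 3 of them called, and 1 neutrophil marker (Csf3r) and 1 fibroblast marker (Pdgfra) were called higher. These counts stand beside 8.7% of all genes called higher in that comparison. In treated against untreated WT mice 10 of 12 macrophage markers were also higher (median 0.43), none called. Cd68 differed there by 0.89 ± 0.30 and Ms4a7 by 0.62 ± 0.22 (adjusted p = 0.133 and 0.165, limma). Of the 7 endothelial markers, 6 were higher in that WT comparison, none called. No macrophage or fibroblast marker was at the floor on all arrays of a group. Among the treated KO mice, the macrophage list mean went with Mmp3 (r = 0.952, rho 0.867, permutation adjusted p = 0.00264, r = 0.913 without the 2 farthest mice), Mmp2 (0.904), Mmp14 (0.901), Timp1 (0.888), Mmp12 (0.848), Mmp10 (0.839) and Mmp13 (0.805), with permutation adjusted p of 0.00396, 0.00264, 0.00654, 0.00877, 0.00991 and 0.0143 for the last 6. Their rho ran 0.855, 0.952, 0.891, 0.806, 0.772 and 0.758, and r without the 2 farthest mice 0.834, 0.906, 0.949, 0.842, 0.838 and 0.754. The fibroblast list mean went with Mmp2 (r = 0.911), Mmp14 (0.875), Timp3 (0.835), Mmp3 (0.813) and Timp1 (0.753), and the neutrophil list mean with Mmp13 (r = 0.897), Mmp10 (0.834) and Mmp3 (0.834), with permutation adjusted p of 0.00396, 0.00509, 0.00991, 0.0134, 0.0259, 0.00568, 0.00991 and 0.0134. The Spearman coefficients of these 8 pairs ran 0.867, 0.867, 0.782, 0.794, 0.818, 0.818, 0.845 and 0.842, and r without the 2 farthest mice ran 0.882, 0.899, 0.846, 0.657, 0.789, 0.779, 0.715 and 0.762. The neutrophil list mean was highest in treated KO repeats 7, 3, 10 and 8 (5.27, 5.16, 4.98 and 4.88). The squamous epithelium list mean, described below, was highest in the same treated KO mice (6.55, 8.34, 7.91 and 8.40). In treated WT mice both list means were highest in repeats 1 and 2. Whether the neutrophil list reads neutrophils alone was not tested. The part of these cells in the spread between mice was not tested either.

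Other tissue and RNA quality also varied. The mean of 14 squamous epithelium markers was 6.19 ± 1.49 in treated KO and 7.74 ± 2.22 in treated WT mice, up to 8.40 and 11.79, and all 14 had a negative difference, none called. The mean of 10 skeletal muscle markers was 6.37 ± 1.44 and 6.92 ± 1.76. With both means as covariates 4 members were called in treated KO against treated WT mice, Mmp14 in place of Mmp12. The mean of 9 colon epithelium markers was 12.23 ± 0.15 and 11.97 ± 0.16, and 4 of the 9 were called higher in treated KO, beside 6.24% of all genes. In treated against untreated KO mice 7 of the 9 were called higher, beside 8.7% of all genes, and in WT mice none was called. The 3' minus 5' signal of the Gapdh and Actb control probe sets averaged -0.031 ± 0.044 in treated KO and -0.010 ± 0.027 in treated WT mice. With it as a covariate, Mmp3 alone was called in treated mice, and Timp1, Mmp13 and Mmp12 had adjusted p of 0.0502, 0.0768 and 0.107 (limma).

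The counts of related genes that follow can be read against the 6.24% and 8.7% of all genes called higher in treated KO against treated WT and in treated against untreated KO mice. Of the other MMPs and inhibitors, 13 were measured, and in treated KO against treated WT mice 2 were called higher and 1 lower (median difference 0.08). Mmp19, a broadly active MMP, averaged 5.85 ± 0.68 and 5.20 ± 0.49, a difference of 0.65 ± 0.22 (adjusted p = 0.0458), and Mmp8, the neutrophil collagenase, 4.28 ± 0.58 and 3.64 ± 0.45, a difference of 0.64 ± 0.20 (adjusted p = 0.0319, limma). Mmp8 differed by as much in untreated mice (0.67 ± 0.26, adjusted p = 0.571) and by 0.24 ± 0.23 in treated against untreated KO mice. Timp4 went the other way from Timp1. It averaged 5.66 ± 0.79 in treated KO, 6.51 ± 0.33 in treated WT, 7.04 ± 0.14 in untreated KO and 6.92 ± 0.21 in untreated WT mice, and fell by 0.85 in treated KO against treated WT and by 1.37 in treated against untreated KO mice (adjusted p = 0.00982 and 0.00037, limma). Mmp19 rose by 0.94 ± 0.25 in the second comparison (adjusted p = 0.00866), and Timp2 did not pass (-0.12 ± 0.20, adjusted p = 0.751). Mmp15, Mmp21, Mmp25, Mmp27 and Mmp28 were not analysed here.

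Among 13 ADAM and ADAMTS proteases, 11 were higher in treated against untreated KO mice (median 0.24), 6 of them called, and none was called lower. Adamts4, which cuts aggrecan-type proteoglycans, rose by 1.68 ± 0.40 (adjusted p = 0.00333), Adamts9 by 0.93 ± 0.23 (0.00515) and Adam8, a leukocyte ADAM, by 0.76 ± 0.22 (0.0151, limma), whereas Adam10 differed by 0.04 ± 0.10. Adamts1 rose by 1.06 ± 0.38 and was called at an adjusted p of 0.05 after rounding (limma). In treated KO against treated WT mice Adamts4 alone was called (1.10 ± 0.34, adjusted p = 0.0326, limma). In treated against untreated WT mice all 13 were higher (median 0.34), and Adam8 alone was called (0.84, adjusted p = 0.0413, limma).

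Of 6 genes of the plasminogen system, which activates several MMP precursors, 2 were called higher in treated against untreated KO mice. Plat, a plasminogen activator, rose by 1.13 ± 0.33 (adjusted p = 0.0142) and Plaur, the urokinase receptor, by 0.75 ± 0.20 (adjusted p = 0.00981, limma). Plaur was also higher in treated KO than in treated WT mice (0.74 ± 0.18, adjusted p = 0.0058, limma). Serpinb2, an inhibitor of plasminogen activators, differed by 0.03 ± 0.60 with treatment in KO mice and by -1.34 ± 0.52 in treated KO against treated WT mice (adjusted p = 0.0916, limma). Of 18 matrix proteins, the substrates of these proteases, 3 were called higher in treated against untreated KO mice and none lower. Lama5 rose by 0.79 ± 0.16 (adjusted p = 0.000741), Eln by 0.78 ± 0.26 (0.0365) and Col4a2 by 0.74 ± 0.24 (0.0273, limma). These 3 of 18 stand beside 8.7% of all genes called higher and 18.7% called in either direction. Col3a1 differed by 0.31 ± 0.16 (adjusted p = 0.182, limma). In KO mice 17 of the 18 were higher with treatment (median 0.29), and in WT mice all 18 were (median 0.17), none called.

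Among cytokines and growth factors known to induce MMPs in other settings, 6 of 11 were called higher in treated against untreated KO mice (median 0.63). Ereg rose by 1.88 ± 0.48 (adjusted p = 0.00577), Il11 by 1.72 ± 0.42 (0.00425) and Hbegf by 1.14 ± 0.32 (0.013, limma). In treated against untreated WT mice 9 of the 11 were higher (median 0.25), none called. There Ereg differed by 1.16 ± 0.48, Il11 by 0.14 ± 0.42 and Hbegf by 1.10 ± 0.32 (adjusted p = 0.233, 0.952 and 0.0777, limma). Il11 alone was also called in treated KO against treated WT mice. It averaged 5.43 ± 1.27 in treated KO and 3.66 ± 0.57 in treated WT mice, a difference of 1.77 ± 0.36 (adjusted p = 0.00195, limma). Il1b differed by 0.52 ± 0.29 with treatment in KO mice (adjusted p = 0.226). In treated KO against treated WT mice Il1b, Tnf and Il6 had differences of 0.29, 0.15 and 0.53, with adjusted p of 0.514, 0.873 and 0.189. Il6 was at the floor in all treated WT and all untreated mice and averaged 3.86 ± 1.04 in treated KO mice (SD). Tnf was at the floor in all untreated WT mice.

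Of 9 genes listed as AP-1 factors, 3 were called higher in treated KO than in treated WT mice and none lower (median difference 0.44). Besides Fos and Jun genes the list holds Atf3 and Maff, so it is wider than the proteins named above for the motif. Binding of any of them to the promoters shown was not tested. Junb averaged 8.84 ± 0.64 and 7.96 ± 0.30 (difference 0.88 ± 0.19, adjusted p = 0.00309), Maff 7.39 ± 0.44 and 6.55 ± 0.26 (0.84 ± 0.14, adjusted p = 0.000286) and Fosl1 5.62 ± 0.61 and 4.90 ± 0.44 (0.72 ± 0.23, adjusted p = 0.04, limma). The same 3 rose with treatment in KO mice, Fosl1 most, by 1.73 ± 0.27 (adjusted p = 7.81e-05), and Jund fell by 0.38 (adjusted p = 0.0172, limma), whereas Fos differed by 0.67 ± 0.33 (adjusted p = 0.158). Maff was the one gene of these lists with a called interaction.

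The genes whose log2 signal followed a called member most closely over the 32 arrays were named by a fixed rule of the 3 highest correlations, which include the differences between groups. For Mmp3 they were Wfdc17 (r = 0.932, 0.882 within groups), Ednrb (0.899, 0.787) and Ccl9 (0.895, 0.848). For Timp1 they were Wfdc17 (0.886, 0.816), Crem (0.885, 0.79) and Ednrb (0.883, 0.789), and for Mmp13 Ncoa7 (0.889, 0.824), Cxcl2 (0.876, 0.864) and Wfdc17 (0.874, 0.847). Mmp12 was followed less closely, by St3gal1 (0.804, 0.722), Mcfd2 (0.80, 0.711) and Retnlb (0.779, 0.71). Wfdc17, a small secreted protein gene, was thus among the 3 for Mmp3, Timp1 and Mmp13, and Ccl9 and Cxcl2 are chemokines. Wfdc17 averaged 8.91 ± 1.05 in treated KO and 7.86 ± 0.39 in treated WT mice (1.05 ± 0.28, adjusted p = 0.0142, limma).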

How the data were processed

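RNA of the distal colon of 32 mice was hybridised to 32 Affymetrix arrays, and the deposited series table of 45101 probe sets held log2 signals. Per the labels, RNA was amplified and labelled by the Affymetrix protocol; the summarising software is not given in the sources used here. On the linear scale the deposited signals had nearly the same 2% trimmed mean on every array (150.9 to 151.3), and none lay under 10 (3.322 on the log2 scale). Scaling to a common mean and raising of lower signals to 10 are inferred from these values. The floor holds 18.7% to 23.9% of probe sets per array and understates differences of dim genes. The number of arrays limits the precision. Array medians ran 5.17 to 5.53, and correlations within groups 0.935 to 0.985.

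Values were quantile normalized. Of the probe sets, 34945 had 1 symbol, 932 several and 9224 none; the one with 1 symbol and the highest mean stood for each of 18193 genes. limma 3.58.1 in R 4.3.3 fitted 4 group means over all arrays, two-sided, with 28 residual and 1.10 prior degrees of freedom. The code was run on simulated data with the same spread in all groups, no floor and differences only in genes above the 40th percentile. That run does not cover the wide treated KO spread or dim genes. Relations across mice used 100000 permutations (Python 3.11.15). The members and lists were chosen with earlier results of these data known. Besides the members, the text names the 3 genes most like each called member and, per list, up to 3 called genes with the largest treated minus untreated KO change and the uncalled gene of highest signal; genes called in other comparisons, called cell type markers, Tnf and Il6 were named after their values were seen. Alternatives covered scaling, a filter under the 40th percentile, probe set choice, samples in the fit, repeat number as a block, array weights, covariates, the threshold and leaving out arrays. Same-numbered mice did not deviate together (over 0.1 in at most 1 pair per comparison), so the numbers were not taken as pairs.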

Additional observations from a re-analysis of the deposited data

Results flagged for a closer look

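Of 40 combinations of member and group, 2 had a mouse set apart from the rest of its group by Dixon's test, about the 1 in 20 that chance gives. Both were Mmp7, which is dim and at the floor in many mice. Treated KO repeat 8 had a log2 signal of 7.61, with the next treated KO mouse at 5.24, and treated WT repeat 6 had 6.52, with the next treated WT mouse at 4.65. None of the 10 interactions was called.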

How the results depend on the processing

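Values are given in the order treated KO minus treated WT, then treated against untreated KO. Against 4 and 3 members called in the reported fit, 1 (Mmp3) and 0 were called with only the compared groups in the fit, 1 and 1 at an adjusted p under 0.01, and 6 and 5 with array weights. In treated KO minus treated WT alone, 2 were called with repeat number as a replicate block (3 in KO mice), 1 with the 3'/5' difference as covariate, and 2 without treated WT repeats 1 and 2. Treated against untreated WT called 0 members, and 1 (Mmp3) with only WT mice in the fit. Leaving out 1 mouse gave 2 to 6 and 3 to 5. Under the replicate block, Mmp12 and Mmp13 lost their call in treated mice (adjusted p = 0.0734 and 0.0501, limma), Mmp13 lost it in KO mice (0.0565) and Mmp2 gained one there (0.0342); no other call changed, and the numbers are not known to pair mice. Array weights per group, chosen after seeing the data, called 4 and 3. The median of all genes moved by at most 0.07 under other scalings, and all 10 members stayed higher in treated KO than treated WT mice under the 3 scalings. Mmp12 was called in treated mice in 22 of 44 settings, Mmp13 in 35 of 45, Timp1 in 43 of 45 and Mmp14 in 10 of 45. The cause of the changes was not tested.

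Values that changed sign were all uncalled. In treated KO minus treated WT, Mmp7 was -0.035 with array weights, -0.011 without treated WT repeats 1 and 2, and -0.27 to 0.36 with 1 mouse left out. In untreated KO minus WT, Mmp2 was -0.020 with median centring, -0.0082 as deposited, -0.013 with averaged probe sets and -0.079 with the 3'/5' covariate, which also gave Mmp12 -0.087 and Timp1 -0.078; with 1 mouse left out Mmp2 ran -0.049 to 0.084 and Mmp12 -0.027 to 0.26. In treated against untreated WT, Timp3 was 0.067 with the replicate block, 0.0052 with array weights, 0.010 with tissue covariates and 0.0020 without treated WT repeats 1 and 2; Mmp7 was 0.046 with array weights and 0.056 without those repeats; Mmp14 was -0.047, -0.036 and -0.015 with the 3'/5' covariate, the tissue covariates and without those repeats; the 3'/5' covariate gave Mmp12 -0.15 and Mmp13 -0.061. With 1 mouse left out these ran -0.068 to 0.038 (Timp3), -0.31 to 0.17 (Mmp7), -0.022 to 0.047 (Mmp14), -0.11 to 0.19 (Mmp12) and -0.0021 to 0.30 (Mmp13). Timp3 in treated against untreated KO ran -0.18 to 0.0022. In the interaction Mmp9 was -0.080 as deposited and -0.11 to 0.13, and Timp3 -0.17 to 0.012.

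Counts over all genes differed by over 1.5 times from the reported 2331 in treated KO minus treated WT with only these groups (1338), with tissue covariates (1532) and at 0.01 (1005); from 3406 in KO mice with only these groups (1919) and at 0.01 (1824); and from 335 in WT mice with array weights (1459, or 1291 per group), in WT mice alone (891), with median centring (213), tissue covariates (222), the 3'/5' covariate (159), at 0.01 (67), without treated WT repeat 7 (202) and without any one of the 6 untreated WT mice (165 to 203). Testing every probe set called 4210 and 6211 in the first 2 comparisons. The 21 genes of untreated KO minus WT became 13 to 49, and the 10 of the interaction 0 to 257. Of the calls, 48.7% and 46.4% were higher in the first 2 comparisons, but 74.6% and 65.8% with median centring.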
